A study of Mus musculus with 12 samples.

Results

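Of the 24470 genes counted in E14.5 mouse testes, 6 were examined here: Mc2r, Mrap, Cyp21a1, Cyp11b1, Cyp11b2 and Akr1b7, genes of the adrenal cortex or of adrenal-like cells in the fetal testis. Bulk counts do not show which cells of the testis express them. They were taken by symbol, and each symbol matched 1 gene of the count table. RNA had been sequenced from whole testes of 6 control and 6 Nr2f2 cKO pools, with 3 testes in each pool. Control embryos were Nr2f2 f/f, so both of their alleles were floxed and no Cre was present. The cKO embryos were Wt1 CreER; Nr2f2 f/f, in which a tamoxifen-dependent Cre is made in Wt1-expressing cells and the recombined allele carries LacZ. The paper lists this Cre as a targeted allele of Wt1, so the groups also differ in Cre and in that allele. These cannot be told apart from loss of Nr2f2. Dams of both groups had received tamoxifen at E11.5 and E12.5. Recombination in this model is incomplete, so the cKO pools held a mixture of cells with and without NR2F2.

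The cortex of the adrenal gland and the steroid-making cells of the gonad arise from a common primordium. In adrenocortical cells, ACTH binds the receptor MC2R, which needs the accessory protein MRAP to reach the cell surface, and cAMP then drives steroid synthesis. CYP21A1 and CYP11B1 turn progestins into corticosterone, and CYP11B2 makes aldosterone. The fetal testis holds cells that express some of these genes, next to the Leydig cells that make androgens. AKR1B7, an aldose reductase-like protein, is abundant in the adrenal cortex, where it detoxifies a by-product of cholesterol side chain cleavage.

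Total counts per library ran from 7044531 to 59404778. Values below are CPM, counts relative to library size after TMM scaling between libraries, and 3 counts corresponded to between 0.0502 and 0.434 CPM in different libraries. Nr2f2 itself had 163 to 186 CPM in control pools and 50.2 to 119 CPM in cKO pools, with a log2 fold change of -1.21 (SE 0.16, adjusted p = 0.000548 by edgeR's quasi-likelihood test). Xist RNA, made in XX cells, exceeded 100 CPM in control pool 1 and in cKO pools 3, 5 and 6, whereas the other 8 libraries had 5.15 to 7.68 CPM. These 4 Xist-high libraries go against the testis label in this respect, and the values without them are given below for Mc2r, Cyp21a1 and Cyp11b1. The Sertoli cell markers Sox9, Amh and Dhh summed to at least 386 CPM in every library, and none of the 3 was called, nor were the germ cell genes Ddx4 and Dazl, while 4 of 5 fetal Leydig cell markers fell.

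A total of 5 of the 6 genes passed the filter on low counts and could be tested. Mc2r rose in cKO testes, none of the 5 fell, and 4 were not called. Across all 15572 genes tested, 8.13% were called at an adjusted p under 0.05, with 3.28% higher and 4.85% lower in cKO testes. Over the 5 members the median log2 fold change was 0.01, against 0.00 over all genes tested. Nor were the groups separate in CPM for any of the 5, whereas they were for 5.52% of all genes tested. The plot of CPM by pool shows each value.

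**Figure D1:**
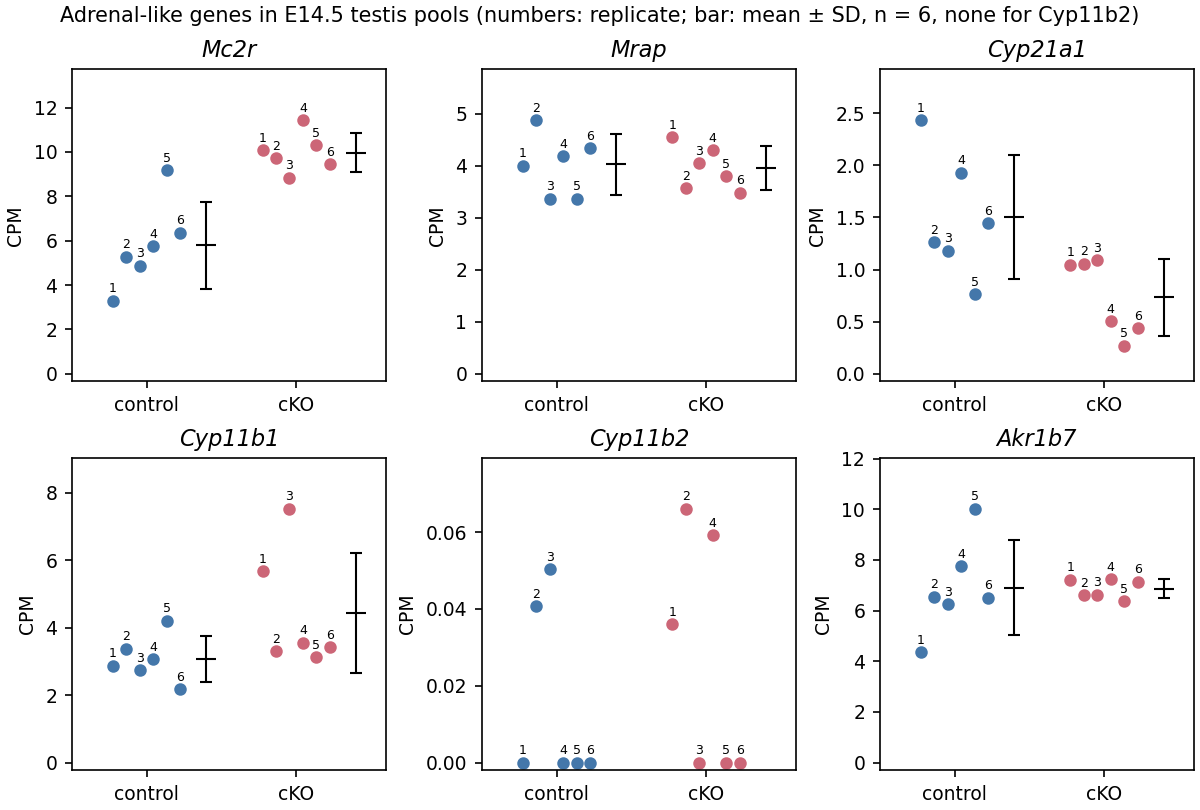
CPM (vertical axes, TMM-scaled) of the 6 genes in each control (blue) and cKO (red) pool, with the replicate number above each point and the mean ± SD of 6 pools beside each group except for Cyp11b2. For Mc2r 5 of 6 cKO points lie above all control points, the Mrap and Akr1b7 groups overlap fully, and Cyp11b2 lies at 0 in 7 of 12 pools.

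Mc2r, the ACTH receptor gene (Entrez Gene 17200, chromosome 18 of mm10 from 68406899 to 68429320, minus strand, 3 exons), had a lowest value of 3.30 CPM, a median of 5.52 and a highest value of 9.18 in control pools. In cKO pools the lowest was 8.84 CPM, the median 9.89 and the highest 11.4. The groups overlapped only because control pool 5, at 9.18 CPM, lay above cKO pool 3. The mean level was 5.79 ± 1.96 CPM in the controls and 9.97 ± 0.881 CPM in the cKO group (SD, n = 6 each), a 1.75-fold rise with a 95% interval of 1.36 to 2.26. The log2 fold change was 0.81 (SE 0.19, adjusted p = 0.0157 by edgeR). An exact two-sided permutation test of the mean CPM difference of 4.18 gave p = 0.00433 over all splits of the 12 pools into 6 and 6. Mc2r counts ranged from 44 to 565 per library, and its call was kept when any 1 of the 12 pools was left out. Without the 4 Xist-high libraries its log2 fold change was 0.77 (adjusted p = 0.0297 by edgeR). No 50-base stretch of its longest GENCODE M21 transcript occurs in a transcript of another gene. As these are bulk samples, more cells that carry a transcript and more transcript per cell cannot be told apart, here and for every gene below. CPM is also a share of the library, and the paper reports fewer interstitial cells in cKO testes. A gene of spared cells could gain share without more such cells or more transcript per cell, which was not tested.

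Mrap, which encodes the accessory protein that MC2R requires (Entrez Gene 77037, chromosome 16 from 90738324 to 90749776, plus strand, 3 exons), was not called. It had a lowest value of 3.37 CPM, a median of 4.10 and a highest value of 4.88 in control pools, and 3.48, 3.92 and 4.55 CPM in cKO pools. Every cKO pool lay within the control range. The log2 fold change was -0.02 (SE 0.13, adjusted p = 0.949 by edgeR), and the 95% interval of the fold, 0.829 to 1.18, left room for a change of either sign.

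The remaining genes of ACTH and cAMP signalling were read from a list of 15, all of which could be tested. In this list, 2 rose, none fell and 13 were not called, and the median log2 fold change was 0.07. Over all genes tested, 3.28% rose and 4.85% fell, which is the share to set beside this list and the lists below. Beside Mc2r the gene that rose was Pde8a, which encodes a cAMP phosphodiesterase, at 23.0 ± 5.55 CPM in the controls and 35.3 ± 4.36 CPM in the cKO pools (SD, n = 6, log2 fold change 0.60, SE 0.14, adjusted p = 0.0172 by edgeR). Its close relative Pde8b had a log2 fold change of -0.47 (adjusted p = 0.153 by edgeR). Pomc, the precursor of ACTH, was at 0.765 ± 0.268 CPM in the controls and 0.886 ± 0.258 CPM in the cKO group. Mrap2, the second MRAP family gene, was at 0.320 ± 0.161 and 0.491 ± 0.130 CPM (log2 fold change 0.48, adjusted p = 0.376 by edgeR). The Gs protein gene Gnas, at a log2 fold change of 0.10, and the ACTH-responsive transcription factor gene Nr4a1, also at 0.10, were not called. Of the melanocortin receptors related to Mc2r, Mc4r fell, from 4.45 ± 1.54 to 2.03 ± 0.764 CPM (log2 fold change -1.06, SE 0.28, adjusted p = 0.0302 by edgeR), a call lost in 7 of the 12 fits that left out 1 pool (adjusted p up to 0.0708).

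Cyp21a1 encodes 21-hydroxylase, the enzyme that commits progestins to corticoid synthesis (Entrez Gene 13079, chromosome 17 from 34801348 to 34804426, minus strand, 10 exons). Its lowest value in control pools was 0.765 CPM, the median 1.35 and the highest 2.44, and in cKO pools these were 0.271, 0.775 and 1.09 CPM. The cKO pools 4, 5 and 6 lay under every control pool, and the other 3 lay within the control range. Control testes averaged 1.503 ± 0.593 CPM and cKO testes 0.734 ± 0.371 CPM (SD, n = 6). The log2 fold change was -1.03 (SE 0.33), larger in size than that of Mc2r, but the adjusted p was 0.0754 by edgeR and the gene was not called. Its call depended on the tool, as the adjusted p was 0.0399 by DESeq2. The difference of -0.769 in mean CPM had p = 0.0216 in an exact two-sided permutation test, p = 0.0519 in the same exact test without cKO pool 5, and p = 0.179 at a difference of -0.447 once the 4 Xist-high libraries were left out, where the log2 fold change was -0.65.

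Cyp21a1 had 357 counts in all, from 2 in cKO pool 5 to 90 in control pool 1. Of the 50-base stretches of its longest transcript, 23.7% (476 of 2009) also occur in Cyp21a2-ps, its pseudogene copy, so reads from either could be shared or dropped in counting. C4a, the complement gene next to Cyp21a1 on the same strand, was at 3.68 ± 0.723 CPM in the controls and 2.72 ± 0.358 CPM in the cKO group (log2 fold change -0.45, SE 0.15, adjusted p = 0.0845 by edgeR). The log2 ratio of Cyp21a1 to C4a was chosen after the values had been seen. It differed by -0.34 between groups, which overlapped, by -0.17 without cKO pool 5 and by -0.0298 without the 4 Xist-high libraries. Tnxb, the tenascin gene in the same cluster on the other strand, rose with no overlap from 15.5 ± 7.97 to 44.4 ± 8.71 CPM (2.83-fold, SE of the log2 value 0.25, adjusted p = 0.00232 by edgeR), so its direction was opposite to that of the Cyp21a1 value.

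Cyp11b1 and Cyp11b2 are neighbours on chromosome 15 and code for similar enzymes, 11β-hydroxylase and aldosterone synthase. Their coding sequences are identical at 1309 of 1503 aligned bases (87.1%), with a longest identical run of 244 bases. Of the 50-base stretches of the longest transcript, 10.5% of those of Cyp11b1 occur in other genes, chiefly Cyp11b2, and 19.1% of those of Cyp11b2 occur in Cyp11b1. Reads can therefore tell them apart over most of their length. The 60-base coding window where they differ most, at coding positions 523 to 582 in exon 3 of each gene, is shown because it is where a read is assigned to 1 of them most surely. It holds 24 differing bases, which are in capitals, against a median of 5 per window. The sequences are from the mm10 genome with GENCODE M21 exons, minus strand, at chr15:74839246-74839305 for Cyp11b1 and chr15:74853815-74853874 for Cyp11b2.
Cyp11b1: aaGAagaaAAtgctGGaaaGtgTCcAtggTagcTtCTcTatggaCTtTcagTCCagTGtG
Cyp11b2: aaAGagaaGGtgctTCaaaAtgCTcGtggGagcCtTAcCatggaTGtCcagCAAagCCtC

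Cyp11b1 (Entrez Gene 110115, chromosome 15 from 74834892 to 74841643, minus strand, 9 exons) was detected in every library, with 15 to 262 counts. In control pools its lowest value was 2.17 CPM, the median 2.96 and the highest 4.21. In cKO pools the lowest was 3.12 CPM, the median 3.49 and the highest 7.52. Only cKO pools 1 and 3, at 5.67 and 7.52 CPM, lay above all control pools. Means were 3.07 ± 0.686 and 4.43 ± 1.78 CPM (SD, n = 6). The log2 fold change was 0.54 (SE 0.23, adjusted p = 0.163 by edgeR), the difference of 1.36 CPM had p = 0.106 in an exact two-sided permutation test, and the gene was not called. Without cKO pool 3 the log2 fold change was 0.32, and without the 4 Xist-high libraries it was 0.43.

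Cyp11b2 (Entrez Gene 13072, chromosome 15 from 74851010 to 74856318, minus strand, 9 exons) was too low to test. It had 7 counts over the 12 libraries together and none in 7 of them. The counted libraries were control pool 2 with 1 count, control pool 3 with 2, cKO pools 1 and 2 with 1 each, and cKO pool 4 with 2. All of these values were under the 3 counts that a count of 0 allows, so no difference was detectable at this depth.

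Among the other genes of corticoid synthesis, Hsd3b6 had 2.49 ± 0.605 CPM in the controls and 2.77 ± 0.334 CPM in the cKO pools. Hsd11b1, at 0.367 ± 0.255 and 0.218 ± 0.0725 CPM, was too low to test. Of a list of 12 corticoid synthesis genes, 10 could be tested, 3 fell, none rose and 7 were not called, and the median log2 fold change was -0.06. Those that fell are shared with androgen synthesis. They were Cyp11a1, the side chain cleavage enzyme (852 ± 171 to 453 ± 149 CPM, log2 fold change -0.91, adjusted p = 0.0152), Hsd3b1 (555 ± 142 to 364 ± 59.6 CPM, -0.61, adjusted p = 0.0365), and the electron carrier Fdx1 (96.5 ± 13.1 to 60.7 ± 8.39 CPM, -0.67, adjusted p = 0.0017), all by edgeR with n = 6. The Hsd3b1 call was lost in 8 of the 12 fits that left out 1 pool (adjusted p up to 0.0883). Star, the cholesterol transport gene, was at 150 ± 25.1 CPM in the controls and 131 ± 31.0 CPM in the cKO group (log2 fold change -0.19, adjusted p = 0.454 by edgeR). The redox partner genes Por and Fdxr had log2 fold changes of 0.10 and 0.23 and were not called. The plot of log2 fold changes sets the members beside these genes.

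**Figure D2:**
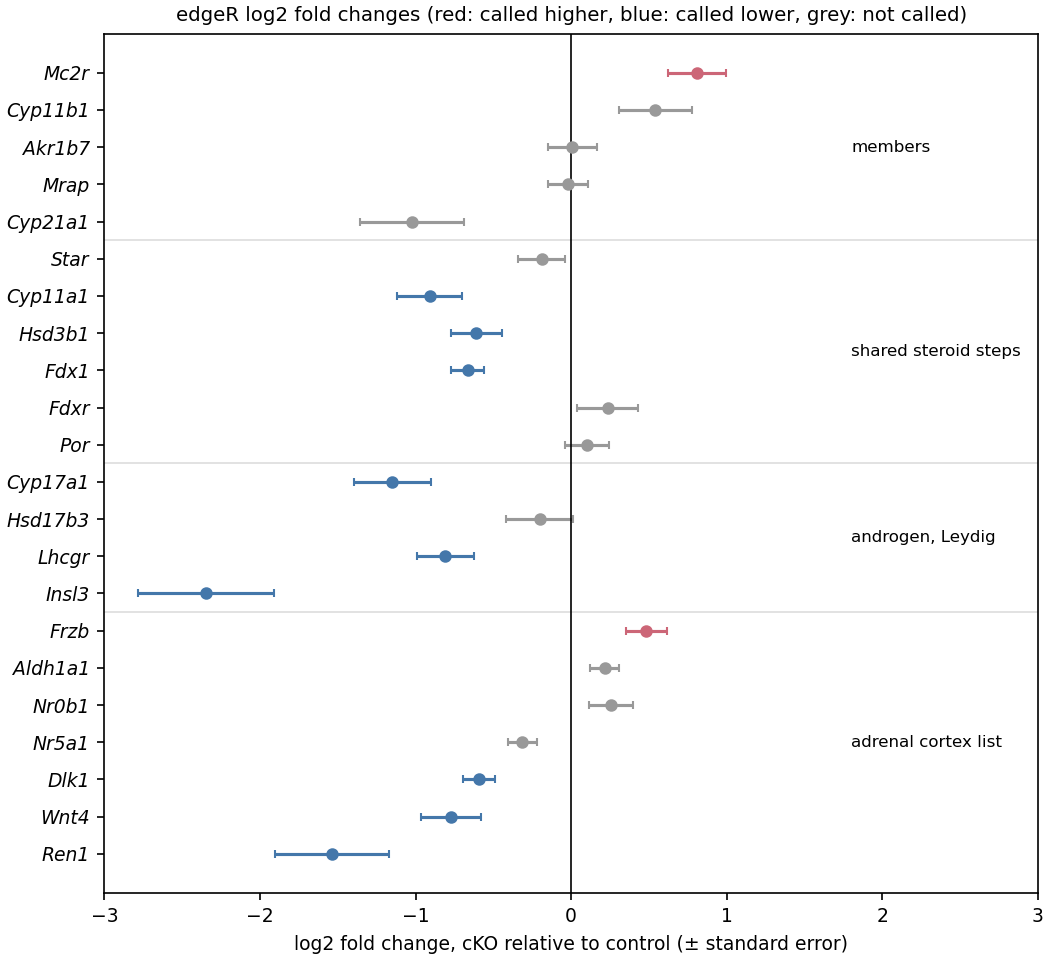
Log2 fold change of cKO over control testes (horizontal axis, bars ± SE of edgeR's fit, 6 pools per group) of the tested members and of other genes of the lists, coloured by call. Mc2r at 0.81 lies to the right, Mrap and Akr1b7 lie at 0, Cyp21a1 at -1.03 has the widest bar of the members, and Cyp11a1, Hsd3b1, Fdx1 and the called Leydig cell genes lie to the left.

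In androgen synthesis and Leydig cell genes, a list of 9 with 8 tested, 3 fell and none rose, and the median log2 fold change was -0.30. Cyp17a1, the 17α-hydroxylase, fell from 886 ± 206 to 399 ± 155 CPM (log2 fold change -1.15, adjusted p = 0.011 by edgeR). Lhcgr, the luteinising hormone receptor and so the gonadal counterpart of Mc2r, fell with no overlap from 63.2 ± 8.82 to 35.8 ± 11.4 CPM (-0.81, adjusted p = 0.0146). Insl3, a Leydig cell hormone gene, had the lowest value of the list at -2.35 (adjusted p = 0.00434). The receptors for the pituitary hormones thus had log2 fold changes of 0.81 and -0.81.

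Akr1b7 (Entrez Gene 11997, chromosome 6 from 34412362 to 34423137, plus strand, 10 exons) had a lowest value of 4.36 CPM, a median of 6.53 and a highest value of 10.02 in control pools. In cKO pools these were 6.38, 6.89 and 7.23 CPM. All cKO pools lay inside the control range, and the SD was 1.88 CPM among controls and 0.373 CPM among cKO pools around means of 6.91 and 6.87 CPM (n = 6). The log2 fold change was 0.01 (SE 0.16, adjusted p = 0.984 by edgeR), with a 95% interval of the fold from 0.811 to 1.25. Its aldose reductase paralogs share coding sequence, with 89.2% identity to Akr1b10, 85.7% to Akr1b8 and 73% to Akr1b3, but only 2.52% of its 50-base stretches occur in another gene. Akr1b3 fell from 204 ± 37.0 to 150 ± 6.53 CPM (log2 fold change -0.44, adjusted p = 0.019 by edgeR), whereas Akr1b8 at -0.11 and Akr1b10 at -0.24 were not called. Of all 9 paralogs and neighbours of the members that could be tested, 1 rose (Tnxb) and 2 fell (Akr1b3 and Mc4r).

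Among the members, a RefSeq promoter sequence (GRCm38.p6) was at hand for Akr1b7. The window from 250 bases before to 50 after its start, chr6:34412112-34412411 on the plus strand, was searched on both strands for the short nuclear receptor site AGGTCA, for CAAGGTCA and CAAGGCCA (2 forms bound by NR5A1), for 2 copies of AGGTCA with 1 base between, and for the cAMP response element TGACGTCA. The shorter AGGTCA is contained in CAAGGTCA and in the repeat. It held AGGTCA once, on the reverse strand from -248 to -243, and 16.3% of 32851 promoters of the same length hold that motif. The other letters were not in this window, and they are held by 1.56%, 2.4%, 0.0396% and 1.79% of promoters, in that order.

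Levels can be compared between genes only per length, and the plot of RPKM (CPM per kilobase of the longest GENCODE M21 transcript) does so. In control testes Akr1b7 had the highest mean of the members at 5.39 ± 1.47 RPKM, then Mrap at 4.02 ± 0.586 and Mc2r at 3.55 ± 1.2, and these neighbours lay within their SD. Cyp11b1 at 0.970 ± 0.217 and Cyp21a1 at 0.730 ± 0.288 RPKM were lower and also within their SD of each other. In cKO testes Mc2r came first at 6.12 ± 0.54 RPKM, followed by Akr1b7 at 5.36 ± 0.291, Mrap at 3.95 ± 0.418, Cyp11b1 at 1.40 ± 0.563 and Cyp21a1 at 0.357 ± 0.18, and here the SD ranges of Mc2r and Akr1b7 overlapped. All members lay far under Cyp11a1, which had 402 ± 80.7 RPKM in control and 214 ± 70.5 RPKM in cKO testes.

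**Figure D3:**
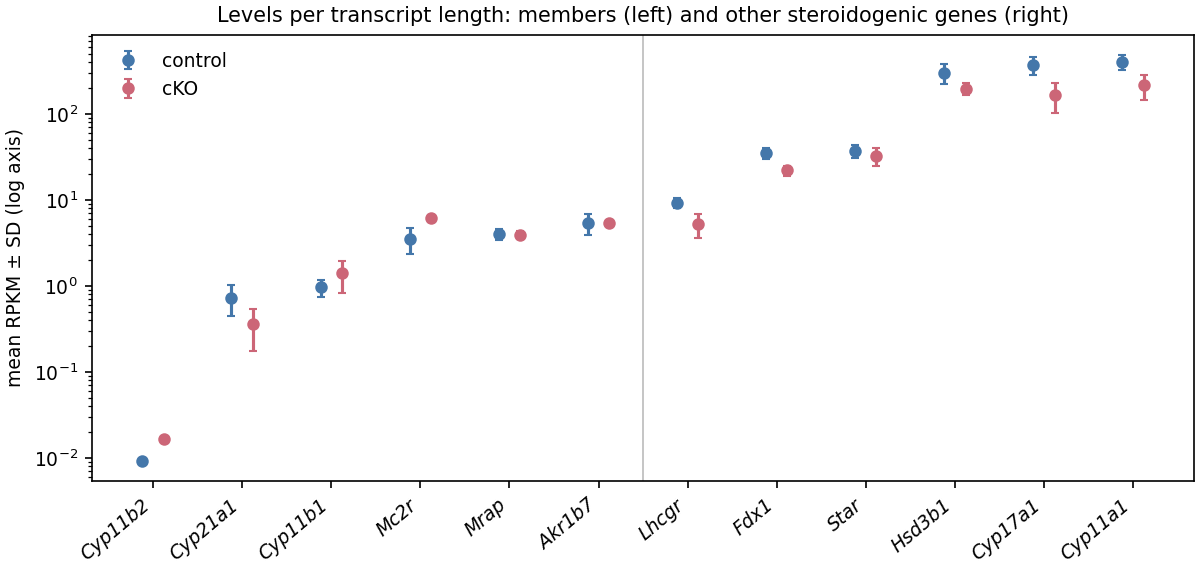
Mean RPKM ± SD over 6 pools (logarithmic vertical axis) in control (blue) and cKO (red) testes of the 6 members, left of the line, and of 6 other steroidogenic genes, right of it. Cyp11b2 is drawn without an SD, and from Cyp11b2 to Cyp11a1 in control testes the means run from 0.00933 to 402 RPKM.

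The ratio of each member to Cyp11a1 in the same library was then taken, as log2 of CPM + 0.5. These ratios were chosen after the values had been seen, and the fall of Cyp11a1 enters each of them: over all genes tested the median difference was 0.96. Mc2r lay between -7.45 and -6.61 in control and between -5.90 and -4.62 in cKO pools, a difference of 1.74. Cyp11b1 lay between -8.24 and -7.44 in control and between -7.32 and -6.02 in cKO pools, a difference of 1.38. For Mc2r, Cyp11b1 and Akr1b7 all cKO pools lay above all control pools, which held for 25.5% of all genes tested. The differences of Akr1b7, at 0.99, and Mrap, at 0.94, were near the median of all genes, and that of Cyp21a1 was 0.25, with 0.0938 when control pool 5 and 0.476 when control pool 1 was left out. No p-value is given for these differences, because a test against 0 does not set them against the median gene.

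**Figure D4:**
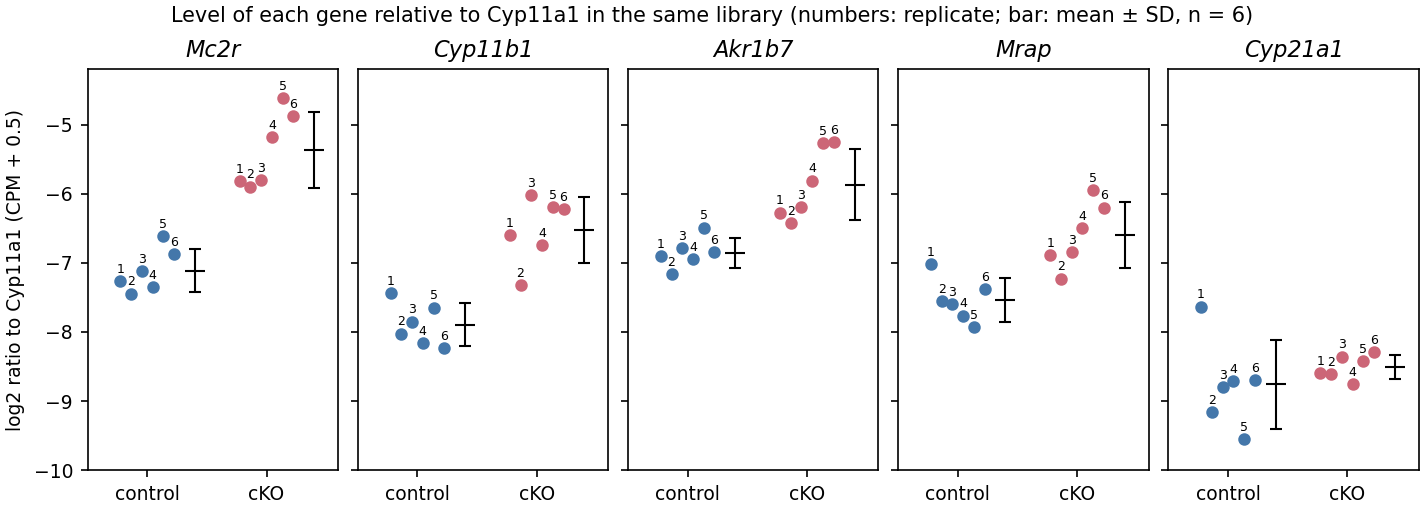
Log2 ratio of each tested member to Cyp11a1 in the same library (vertical axis, CPM + 0.5), with replicate numbers and the mean ± SD of 6 control (blue) and 6 cKO (red) pools. Mc2r differs by 1.74 and Cyp11b1 by 1.38, Akr1b7 and Mrap by 0.99 and 0.94, near the 0.96 of the median gene, and Cyp21a1 by 0.25.

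Among the control pools Mc2r and Akr1b7 varied together. The Pearson r of their deviations from the group means of log2 CPM was 0.92 over 12 libraries, a description in which both genes share library and depth. It was 0.95 in the 6 control pools, 0.33 in the controls without pools 1 and 5, 0.34 in the 6 cKO pools and 0.67 in the cKO pools without pools 1 and 5. Control pools 1 and 5 were at the ends for both, with 3.30 and 9.18 CPM of Mc2r and 4.36 and 10.02 CPM of Akr1b7. The other pairs of members had r from -0.56, for Mc2r with Cyp21a1, to 0.35. Per library, the log2 ratio of Mc2r to Akr1b7 was between -0.41 and -0.03 in control and between 0.38 and 0.65 in cKO pools, so the groups did not overlap, whereas 0.552% of all genes tested had a ratio to Akr1b7 that was higher in cKO pools with no overlap. The difference was 0.76. It was 0.73 to 0.80 with 1 pool left out at a time and 0.77 without the 4 Xist-high libraries. A difference at or above that of Mc2r was held by 1.4% of all genes tested. As the log2 fold change of Akr1b7 was 0.01, the difference largely restates the Mc2r value of 0.81. This ratio too was chosen after the values of both genes had been seen, so it is a description and no p-value is given.

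By the same measure over the 14261 genes whose mean reached 1 CPM, the genes closest to Mc2r were 1810058I24Rik, Gsta4 and Tmem184c, each with r = 0.98, and Tceal9 and Impa1, each with r = 0.97. Unlike Mc2r their log2 fold changes were negative, from -0.35 to -0.16. With the group means left in, their r with Mc2r over the 12 libraries was -0.14 to 0.22. For the 5 genes closest to Akr1b7 it was 0.69 to 0.83, and for those closest to Cyp21a1 0.55 to 0.98. Control pools 1 and 5 lay at the ends for Mc2r and Akr1b7, and r without these pools was not computed for the genes named here. Closest to Akr1b7 were Serpinb1a at 0.97 and Mir703, Osbpl1a and Fkbp7 at 0.96, then Bloc1s1 at 0.95. For Cyp21a1 they were Loxl1 at 0.98, Spag7 at 0.97, the collagen gene Col1a2 and Klhdc4 at 0.96 and She at 0.94, and Loxl1, a lysyl oxidase gene, fell with a log2 fold change of -0.52 (adjusted p = 0.0313 by edgeR), a call lost in 6 of the 12 fits without 1 pool and without the Xist-high libraries. Cyp11b1 had Id4 at 0.87, Atp6v0c at 0.85, Gpatch1 at 0.80, Abcd3 at 0.79 and Bhlhe22 at 0.78. Mrap had Pou2f3 at 0.82, Klc4 and Klhl42 at 0.80, Gcnt4 at 0.78 and Ngp at 0.76. The values for Cyp11b1 and Mrap were lower than those for the other 3 genes.

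Genes of adrenal cortex identity were read from a list of 20 symbols, 19 of which were in the table and 17 of which could be tested. Of these, 1 rose, 3 fell and 13 were not called, and the median log2 fold change was -0.02. Frzb, a secreted WNT antagonist gene, rose from 7.59 ± 1.62 to 10.4 ± 0.613 CPM (log2 fold change 0.48, SE 0.13, adjusted p = 0.034 by edgeR). Ren1, the renin gene, fell from 194 ± 53.0 to 66.4 ± 40.3 CPM (-1.54, SE 0.37, adjusted p = 0.0194), and Dlk1 from 420 ± 36.2 to 278 ± 45.3 CPM (-0.59, SE 0.10, adjusted p = 0.00323). Wnt4, a signal gene of the outer adrenal cortex and of the gonad, fell from 67.7 ± 21.1 to 39.9 ± 9.53 CPM (-0.77, SE 0.19, adjusted p = 0.0249). In Ren1, Dlk1 and Wnt4 all cKO pools lay under all control pools. With 1 pool left out at a time, the Frzb call was lost in 8 of 12 fits (adjusted p up to 0.0762) and the Wnt4 call in 2 (up to 0.0574). Without the Xist-high libraries the Frzb value was 0.42 (adjusted p = 0.0782). Nr5a1, the steroidogenic factor gene of adrenal and gonad, had a log2 fold change of -0.31 (adjusted p = 0.0517), and Nr0b1 had 0.26. Hoxb9, a Hox gene of the adrenal primordium, had 0.17. None of these 3 was called.

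Markers of adrenal medulla were also read, because adrenal tissue carried along with a testis would bring them. Of 11 such genes, 8 could be tested, 1 rose and none fell, and the median log2 fold change was 0.23. The gene that rose was Cyb561 (13.4 ± 1.10 to 17.0 ± 2.21 CPM, log2 fold change 0.34, adjusted p = 0.042 by edgeR), which many tissues express, and its call was lost in 8 of the 12 fits that left out 1 pool and without the Xist-high libraries (0.23, adjusted p = 0.171). Dbh, which defines noradrenaline-making cells, had 20 counts over 12 libraries, none in 4 of them and at most 0.145 CPM. Summed over the list, control pools had 26.5 to 31.0 CPM and cKO pools 31.5 to 35.0 CPM, without overlap, in the direction of Mc2r. Without Cyb561 the groups overlapped, at 12.9 to 16.5 and 14.8 to 17.4 CPM, with 3 cKO pools above all control pools. Of the 8 tested genes, 6 had positive and 2 negative log2 fold changes. Pnmt, with 3 to 25 counts per library, had 0.365 ± 0.134 and 0.669 ± 0.160 CPM (log2 fold change 0.86, adjusted p = 0.0766 by edgeR). In it 5 cKO pools lay above all control pools, and an exact two-sided permutation test of mean CPM gave p = 0.00649. Chga had 2.06 ± 0.972 and 3.54 ± 0.722 CPM (adjusted p = 0.102), whereas Th had 2.45 ± 0.622 and 1.86 ± 0.360 CPM (adjusted p = 0.202) and Slc18a2 1.72 ± 1.29 and 1.22 ± 0.466 CPM (adjusted p = 0.379). The part of these values in the Mc2r result was not tested.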

How the data were processed

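Pools of 3 whole testes gave 12 strand-specific poly-A libraries. Per the submitters' processing notes and methods, the authors trimmed reads with Trim Galore 0.6.7, aligned them to mm10 with STAR 2.5 and counted them by strand with featureCounts (Subread 1.5.0-p1) on RefSeq Curated genes. They deposited raw counts. Here counts were TMM-scaled in edgeR 4.0.16 (R 4.3.3), filtered by filterByExpr (minimum count 10, minimum total 15) and compared by its quasi-likelihood test without covariates, adjusted by the Benjamini-Hochberg method over 15572 genes with a threshold of 0.05. Intervals of folds are 95% normal intervals on the log2 scale. Single values were compared by exact permutation tests. The labels do not tie pools to litters, so p-values measure only the spread between pools. The floor of 3 counts covers counting error only. Total counts per library ran from 7044531 to 59404778.

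The genes named were the members, Nr2f2, Xist, listed genes and the 5 genes closest to each member. Members and gene lists were chosen with earlier results of these data known, and the ratios after their values were seen. Replicate libraries differed beyond sampling noise. Alternatives were DESeq2 1.42.0, limma-voom (limma 3.58.1), other scalings and filters, a replicate block, libraries with Xist under 100 CPM, and leaving out each pool. The tests were tested on simulated data. Protein sequences were not used here.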

Additional observations from a re-analysis of the deposited data

Results flagged for a closer look

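Of 146 groups of 6 pools examined, 2 for each gene checked, 9 held a pool that stood apart from the other 5 by Dixon's gap criterion, and chance gives about 1 in 20. Ren1 had 300.4 CPM in control pool 2 and 162 to 184 CPM in the other control pools. Control pool 1 had 891 CPM of Xist against 5.15 to 6.403 CPM in the other controls. In that pool Wnt4 had 109.98 CPM against 51.8 to 63.3 CPM, Tnxb 31.0 CPM against 8.34 to 14.6 CPM, and Slc18a2 4.22 CPM against 0.578 to 1.76 CPM. In control pool 5 Akr1b10 had 29.0 CPM against 19.7 to 22.0 CPM, and Atp6v0c 73.6 CPM against 60.7 to 65.0 CPM. Among cKO pools, Slc18a2 had 2.12 CPM in pool 3 against 0.794 to 1.26 CPM, and Mrap2 had 0.234 CPM in pool 6 against 0.505 to 0.603 CPM.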

How the results depend on the processing

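The Mc2r call was kept in every setting run. Cyp11b2 failed the filter on low counts and was not tested. DESeq2 gave 1919 differentially expressed genes in place of 1266 and called Cyp21a1 at a log2 fold change of -1.02 (adjusted p = 0.0399). Without the 4 Xist-high libraries the Cyp21a1 difference was -0.447 CPM, and Mrap and Akr1b7, both near 0, changed sign to log2 fold changes of 0.0636 and -0.0617, with a Mrap difference of 0.110 CPM. Frzb, Cyb561 and Loxl1 lost their calls there. Mc4r also lost its call under limma-voom (adjusted p = 0.0572) and Cyb561 with no filter on low counts (0.0537). Plain library totals turned the Mrap and Akr1b7 differences to 0.0157 and 0.129 CPM, and log2 CPM gave 0.0336 for Akr1b7. The causes were not tested.

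Leaving out each pool gave 816 (without cKO pool 4) to 3106 (without control pool 1) genes. Log2 fold changes ran from -1.19 to -0.81 for Cyp21a1, 0.32 to 0.65 for Cyp11b1, 0.68 to 1.00 for Mc2r, -0.0707 to 0.0487 for Mrap and -0.10 to 0.15 for Akr1b7. Differences in CPM ran from -0.916 to -0.582, 0.743 to 1.62, 3.68 to 4.86, -0.198 to 0.104 and -0.551 to 0.583 for these genes in that order, and 0.00392 to 0.0188 for Cyp11b2. Genes called numbered 2 to 3 in corticoid synthesis, 2 to 3 in ACTH signalling, 2 to 5 in adrenal cortex identity and 3 to 4 in the androgen list. Hsd3b1 and Frzb each lost the call in 8 of 12 such fits and Wnt4 in 2, and Tnxb and Akr1b3 kept theirs in all.

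Deviations of same-numbered control and cKO pools from their group means had r from -0.33 to 0.24. The labels do not say whether the numbers pair the pools. A low r cannot exclude a shared litter or day, so pairing was not settled. A replicate block gave 931 genes and left Mc2r at 0.86 (adjusted p = 0.0199 by edgeR), while Hsd3b1 (-0.58, 0.11), Frzb (0.50, 0.0603) Wnt4 (-0.76, 0.0691) and Mc4r (-1.03, 0.0659) lost their calls.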
